A study of Mus musculus with 6 samples.

Results

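The genes described here are 3 junctional adhesion molecule (JAM) genes, Jam2, Jam3 and F11r, and 4 connexin genes, Gja1, Gjb2, Gjb5 and Gjc1, taken by gene name from a table of 78298 mouse genes. All 7 were present once and all 7 passed the filter for testing, a mean of at least 1 TPM over the 6 libraries, as did 14036 genes in all. The members were selected on gene family and on their measured TPM in EpiLCs and ESCs, the contrast described here, so their values are given as a description without a test.

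JAM proteins are single-pass membrane proteins of the immunoglobulin superfamily that sit at cell contacts, bind each other across or along the membrane, and hold PDZ-domain scaffold and polarity proteins at their cytoplasmic tails. Connexins are the subunits of gap junctions, channels that join the cytoplasm of neighbouring cells and pass ions and small metabolites. Which connexins a cell makes sets the permeability of its channels and the partners they can dock with, and early mouse embryos and embryonic stem cells are known to be well coupled by gap junctions.

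Sequencing of poly(A) RNA covered epiblast-like cells (EpiLCs, 3 libraries), which resemble the epiblast after implantation, and embryonic stem cells (ESCs, 3 libraries), the cultured counterpart of the naive epiblast, all from mouse and all wild type. Both came from 1 line, which the labels call BVSC clone H18. The libraries are labelled biological replicates, the separation of the cultures is not stated, and culture media and induction time are not given in the sources used here. Values are TPM, an abundance estimate corrected for transcript length and scaled so that each library sums to 1000000, so levels of different genes can be compared but read depth is unknown.

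The labelled states carried their markers. The summed level of 6 EpiLC markers (Fgf5, Otx2, Pou3f1, Dnmt3a, Dnmt3b and Dnmt3l) was 939 to 1213 TPM in EpiLCs, against 38.6 to 40.7 TPM in ESCs, and that of 6 ESC markers (Klf4, Tbx3, Esrrb, Tfcp2l1, Zfp42 and Nanog) was 234 to 265 TPM in EpiLCs, against 1145 to 1237 TPM in ESCs. The pluripotency genes Pou5f1 and Sox2 summed to 979 to 1119.6 TPM in EpiLCs, against 1293 to 1361 TPM in ESCs. Most of this sum was Pou5f1, which averaged 976 TPM in EpiLCs and 1135 TPM in ESCs. Sox2 differed more in proportion, at 74.5 TPM in EpiLCs and 201 TPM in ESCs. Over all tested genes, 66.9% passed the test between the states, 36.1% higher and 30.9% lower in EpiLCs. In such bulk samples, fewer cells expressing a gene and less RNA per cell cannot be told apart.

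Within the JAM family, Jam2 was the main gene in ESCs and close to absent in EpiLCs. Jam2 (ENSMUSG00000053062, chromosome 16), which encodes JAM-B, had 0.648, 0.422 and 0.688 TPM in the EpiLC libraries, against 248, 256 and 277 TPM in the ESC libraries. The mean was 0.586 ± 0.143 TPM in EpiLCs and 261 ± 15.1 TPM in ESCs (SD, n = 3 each), so the EpiLC mean was 0.225% of the ESC mean. The log2 difference of -7.37 (SE 0.09, on log2(TPM + 1), EpiLC minus ESC) was the lowest of all tested genes, and no EpiLC library came near an ESC library. In level, 2.16% of tested genes had a lower mean than Jam2 in EpiLCs, against 96.1% in ESCs.

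Jam3 (ENSMUSG00000031990, chromosome 9) encodes JAM-C, the known heterophilic binding partner of JAM-B. It had 11.4, 11.4 and 11.6 TPM in EpiLCs, against 20.4, 21.2 and 19.2 TPM in ESCs, with means of 11.4 ± 0.103 TPM in EpiLCs and 20.3 ± 1.01 TPM in ESCs (SD, n = 3 each). The EpiLC libraries were all below the ESC libraries, with a log2 difference of -0.77 (SE 0.07). An annotated antisense gene overlaps Jam3, and it was at no more than 0.0230 TPM in an EpiLC library and 0.0287 TPM in an ESC library.

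F11r (ENSMUSG00000038235, chromosome 1) encodes JAM-A, the family member typical of epithelial tight junctions, which binds itself on the opposite cell. It had 44.8, 41.7 and 45.0 TPM in EpiLCs, against 32.3, 39.7 and 35.5 TPM in ESCs. The means were 43.8 ± 1.86 TPM in EpiLCs and 35.9 ± 3.75 TPM in ESCs (SD, n = 3 each), a log2 difference of 0.29 (SE 0.08). The groups did not overlap, but the lowest EpiLC library and the highest ESC library lay within 1 SD of the ESC group of each other.

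The make-up of the family therefore differed between the states. Jam2 made up 1.04 ± 0.222% of the summed JAM TPM in EpiLCs and 82.3 ± 1.37% in ESCs, while F11r made up 78.5 ± 0.461% in EpiLCs and 11.3 ± 1.04% in ESCs (SD, n = 3 each). The share of Jam3 was 20.5 ± 0.673% in EpiLCs and 6.41 ± 0.551% in ESCs, although its own level was lower in EpiLCs. The summed level of the 3 genes was 55.9 ± 2.07 TPM in EpiLCs and 317 ± 15.7 TPM in ESCs.

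**Figure D1:**
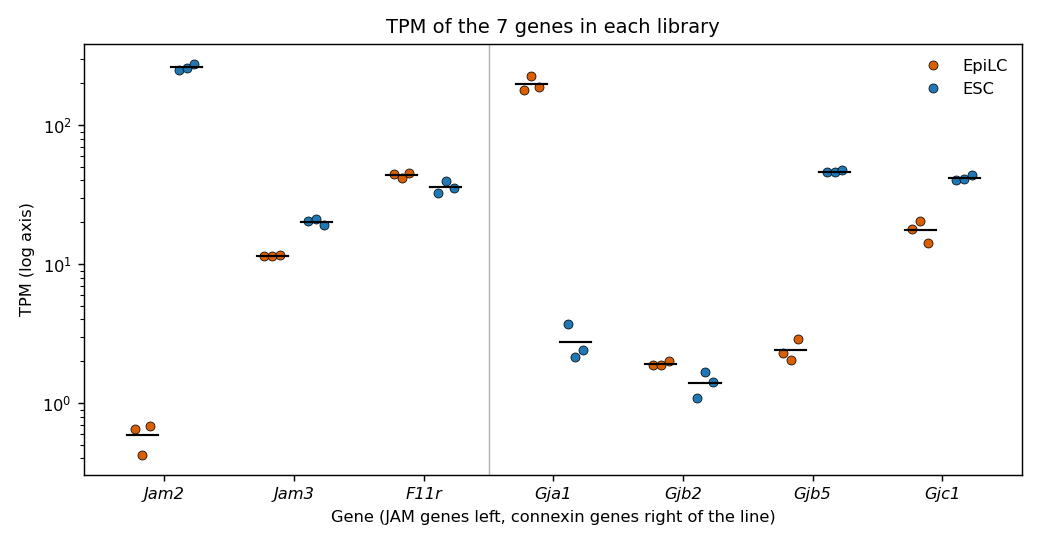
TPM (log axis) of each of the 7 genes in the 3 EpiLC libraries (orange, left of each pair) and the 3 ESC libraries (blue, right), with a bar at the group mean. Jam2 lies below 1 TPM in every EpiLC library and at 248 TPM or more in every ESC library, and Gja1 lies at 179 TPM or more in EpiLCs and at 3.70 TPM or less in ESCs.

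Among the connexins, Gja1 had the opposite pattern to Jam2. Gja1 (ENSMUSG00000050953, chromosome 10) encodes Cx43, the most widely expressed mammalian connexin. It had 179, 225 and 189 TPM in EpiLCs, against 3.70, 2.15 and 2.42 TPM in ESCs. The mean was 198 ± 24.0 TPM in EpiLCs and 2.76 ± 0.825 TPM in ESCs (SD, n = 3 each), a ratio of means of 71.7 and a log2 difference of 5.74 (SE 0.16). Of the tested genes, 1 had a higher log2 difference.

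Gjb5 (ENSMUSG00000042357, chromosome 4), which encodes Cx31.1, a connexin known from mouse trophoblast and skin, was much higher in ESCs. It had 2.30, 2.05 and 2.87 TPM in EpiLCs, against 45.7, 45.9 and 47.3 TPM in ESCs. The EpiLC mean of 2.41 ± 0.421 TPM was 5.20% of the ESC mean of 46.3 ± 0.856 TPM (SD, n = 3 each), and the log2 difference was -3.80 (SE 0.10). The ESC libraries lay within a few percent of each other.

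Gjc1 (ENSMUSG00000034520, chromosome 11), which encodes Cx45, a connexin needed for the developing mouse heart, was well expressed in both states. It had 17.8, 20.5 and 14.2 TPM in EpiLCs, against 40.3, 41.2 and 44.1 TPM in ESCs. The means were 17.5 ± 3.18 TPM in EpiLCs and 41.9 ± 1.96 TPM in ESCs (SD, n = 3 each), a log2 difference of -1.23 (SE 0.12), with every EpiLC library below every ESC library.

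Gjb2 (ENSMUSG00000046352, chromosome 14), which encodes Cx26, the connexin most often affected in inherited human deafness, was low in both states. It had 1.87, 1.89 and 2.02 TPM in EpiLCs, against 1.08, 1.68 and 1.42 TPM in ESCs. The means were 1.93 ± 0.0810 TPM in EpiLCs and 1.39 ± 0.301 TPM in ESCs (SD, n = 3 each), with a log2 difference of 0.30 (SE 0.13), which was 0.20 without ESC replicate 1, the lowest ESC library.

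None of the 7 genes overlapped between the groups, 3 with EpiLCs above ESCs and 4 with EpiLCs below. Over all tested genes 71.5% did not overlap, 38.4% with EpiLCs above and 33.1% with EpiLCs below, and the members were chosen on this contrast. The order of levels among them differed between the states. From high to low it was Gja1, F11r, Gjc1, Jam3, Gjb5, Gjb2 and Jam2 in EpiLCs, and Jam2, Gjb5, Gjc1, F11r, Jam3, Gja1 and Gjb2 in ESCs. No neighbours in either order overlapped between libraries, but some gaps were narrow. The lowest Gjb5 value in EpiLCs was 2.05 TPM beside a highest Gjb2 value of 2.02 TPM, and in ESCs the lowest Gjc1 value was 40.3 TPM beside a highest F11r value of 39.7 TPM.

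**Figure D2:**
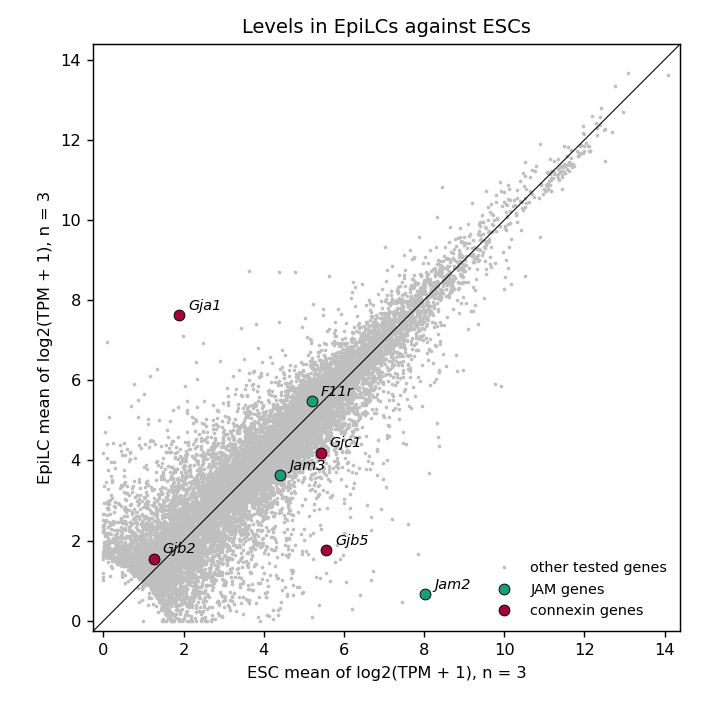
Mean log2(TPM + 1) of each tested gene in EpiLCs (vertical axis) against ESCs (horizontal axis), n = 3 libraries each, with JAM genes in green and the 4 connexin members in dark red. Jam2 and Gja1 lie at opposite edges of the cloud of 14036 genes, while F11r and Gjb2 lie near the line of equal levels.

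RefSeq promoter sequences (assembly GRCm38.p6, older than the mm39 build named in the submitters' processing notes) matched 4 of the 7 genes by symbol, F11r, Gja1, Gjb2 and Gjb5. The 250 bases before the annotated start are shown for the connexins on opposite sides of the comparison, Gja1 (chr10:56377050-56377299, plus strand) and Gjb5 (chr4:127358165-127358414, minus strand), and for F11r (chr1:171437311-171437560, plus strand), which shares a motif with Gja1. Capitals mark matches, on either strand, to TGANTCA (the AP-1 heptamer), GGGCGG (the GC box), CCAAT (the CCAAT box) and TATAAA (the TATA box), and no matches overlapped.
Gja1: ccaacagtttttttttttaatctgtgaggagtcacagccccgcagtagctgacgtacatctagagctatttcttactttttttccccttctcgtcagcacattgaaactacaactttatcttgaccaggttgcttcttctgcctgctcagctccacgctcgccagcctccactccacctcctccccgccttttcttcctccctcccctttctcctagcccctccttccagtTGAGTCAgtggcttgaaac
Gjb5: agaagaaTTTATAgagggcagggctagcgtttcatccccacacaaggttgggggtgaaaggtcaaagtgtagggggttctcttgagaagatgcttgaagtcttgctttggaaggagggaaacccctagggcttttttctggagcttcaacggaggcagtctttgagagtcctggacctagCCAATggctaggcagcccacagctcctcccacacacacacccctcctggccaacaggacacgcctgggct
F11r: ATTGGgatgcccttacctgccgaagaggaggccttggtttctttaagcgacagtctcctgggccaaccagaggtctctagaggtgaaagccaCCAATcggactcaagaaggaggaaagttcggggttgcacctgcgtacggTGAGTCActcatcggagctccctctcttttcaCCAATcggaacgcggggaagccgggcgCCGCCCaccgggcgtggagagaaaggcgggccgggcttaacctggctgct

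The AP-1 heptamer, bound by Fos and Jun proteins, was in the Gja1 stretch, starting 19 bases before the annotated start, and in the F11r stretch, starting 109 bases before it. It was in 6.75% of 32851 promoter stretches of the same length. These letters were not in the Gjb5 or Gjb2 windows. Gjb5 held a CCAAT box 70 bases before the start and a reversed TATA box 243 bases before it, motifs held by 33.8% and 12.4% of all stretches. F11r held CCAAT boxes and a GC box, and Gjb2 held GC boxes, a motif of 32.7% of stretches. The number of CpG pairs was 3 for Gjb5 and 6 for Gja1, against 17 for F11r and 18 for Gjb2, with a median of 6 over all stretches. These are descriptions of 4 sequences and not of binding.

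Set among all 20 connexin genes in the table, the summed connexin level differed by less than the spread between libraries while the shares of Gja1, Gjb5 and Gjc1 in it did not overlap between the states. The sum was 215, 254 and 221 TPM in EpiLCs, against 219.5, 227 and 238 TPM in ESCs, with means of 230.4 ± 21.0 TPM in EpiLCs and 228 ± 9.21 TPM in ESCs (SD, n = 3 each). The groups overlapped, and with median-of-ratios scaling, an alternative added after the data were seen, the order of the means was turned, at 225.5 TPM in EpiLCs and 231 TPM in ESCs. It was also turned without EpiLC replicate 2, at 218 TPM in EpiLCs, against 228 TPM in ESCs. Without ESC replicate 1 it was turned at 230.4 TPM in EpiLCs, against 232.6 TPM in ESCs. Leaving out any other library did not turn it. Gja1 made up 85.6 ± 2.62% of the connexin sum in EpiLCs and 1.22 ± 0.406% in ESCs. Gjb5 made up 1.06 ± 0.245% in EpiLCs and 20.3 ± 0.482% in ESCs, and Gjc1 made up 7.58 ± 1.02% in EpiLCs and 18.3 ± 0.207% in ESCs. The share of Gjb2 was below 1% in every library.

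EpiLC replicate 2 had the highest Gja1 level of the EpiLC libraries, at 225 TPM, and the lowest Fgf5 and Otx2 levels of the 3, at 3.61 and 22.9 TPM. Of the other EpiLC markers, Pou3f1 and Dnmt3l were also lowest there, at 27.9 and 92.1 TPM. Dnmt3a was highest there, at 452 TPM, and Dnmt3b lay between the other libraries, at 398 TPM. Without EpiLC replicate 2 the Gja1 log2 difference was 5.64, against 5.74 with all libraries. The Gja1 share of the connexin sum in EpiLCs was then 84.2%, against 85.6%. The cause of these differences between libraries was not tested.

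Of the 16 connexins outside the 7, 2 passed the filter at 1 TPM, and of these 2 fell and 0 rose by the limma test, against a background of 30.9% lower and 36.1% higher. A list of 2 tested genes carries little weight as a count.

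Gja4, the connexin gene of vessels and oocytes that encodes Cx37, was at 0.403 ± 0.0971 TPM in EpiLCs and 1.29 ± 0.0681 TPM in ESCs (SD, n = 3 each). It missed the filter, and when no filter was used it was lower in EpiLCs (a log2 fold change of -0.71 with SE 0.12, limma adjusted p = 0.0061). The other 13 connexins were below 1 TPM in every library, and Gje1 was listed at 0 in all 6.

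**Figure D3:**
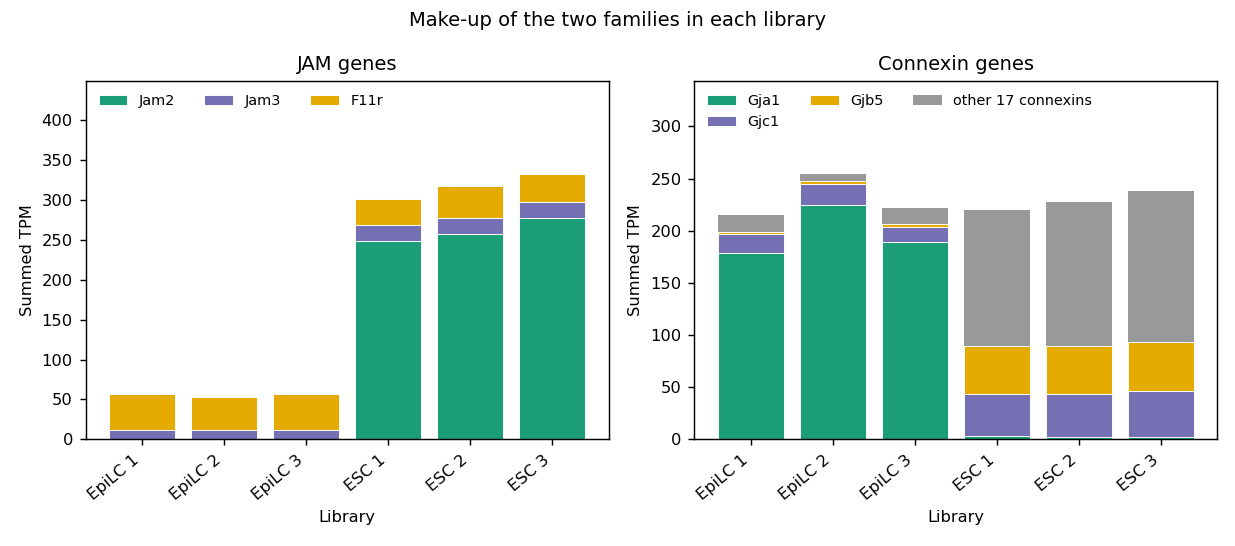
Summed TPM of the 3 JAM genes (left) and of all 20 connexin genes (right) in each library, EpiLC libraries first, stacked by gene with the remaining connexins in grey. The JAM sum is 53.5 to 57.3 TPM in EpiLCs and 301 to 332 TPM in ESCs, and the connexin sums of both states overlap and are made mostly of Gja1 in EpiLCs, while Gja1 is a thin band in ESCs and Gjb5 and Gjc1 are wider there.

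Genes known as markers of other cell types were compared beside these values, since fibroblast feeder cells are known to be rich in Gja1, endothelial cells in Jam2 and mouse trophoblast in Gjb5. Of 8 fibroblast markers, 3 reached 1 TPM in a library (Col1a1, Thy1 and Dcn), and their sum was 12.7 to 15.9 TPM in EpiLCs, against 3.20 to 5.72 TPM in ESCs, most of it Thy1. Col3a1 and Postn averaged 0.0223 and 0.0178 TPM in EpiLCs and were listed at 0 in ESCs, and Dcn averaged 2.26 ± 0.769 TPM in EpiLCs and was listed at 0 in ESCs. Col1a2 and Col6a3, below 1 TPM in every library, averaged 0.412 and 0.160 TPM in EpiLCs, against 0.0133 and 0.0266 TPM in ESCs. Col1a1 was on the other side, at 0.380 ± 0.0770 TPM in EpiLCs and 0.918 ± 0.387 TPM in ESCs (SD, n = 3 each). The fibroblast sum moved in the same direction as Gja1 although Col1a1 did not, and its part in the Gja1 value was not tested.

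Of 8 trophoblast markers, 5 reached 1 TPM, with a sum of 10.2 to 15.4 TPM in EpiLCs, against 33.3 to 38.5 TPM in ESCs, most of the ESC sum being Tead4. The defining markers Cdx2 and Elf5 were at 0.219 and 0.0126 TPM in EpiLCs and at 0.0257 and 0.0948 TPM in ESCs. Of 8 endothelial markers, 4 reached 1 TPM, with a sum of 86.9 to 101 TPM in EpiLCs, against 160.4 to 185 TPM in ESCs, mostly Pecam1 and Egfl7. Pecam1 averaged 39.7 TPM in EpiLCs and 132 TPM in ESCs, while Egfl7 was higher in EpiLCs, at 50.4 TPM, against 34.5 TPM in ESCs (limma adjusted p = 3.0e-04). The defining markers Cdh5 and Kdr were at 0.0184 and 0.0111 TPM in EpiLCs and at 0.00565 and 0.0598 TPM in ESCs, where Jam2 was at 261 TPM. For 8 primitive endoderm markers the sum was 86.3 to 94.3 TPM in EpiLCs, against 368 to 391 TPM in ESCs, most of it Sparc. Gata6 averaged 0.185 TPM in EpiLCs and 0.757 TPM in ESCs, while Dab2 rose to 7.12 TPM in EpiLCs, against 0.123 TPM in ESCs (limma adjusted p = 2.9e-06). The trophoblast, endothelial and primitive endoderm sums moved in the same direction as Jam2 and Gjb5. Their part in those values was not tested. Single markers such as Cdx2, Egfl7 and Dab2 did not move that way, nor did Gata3, at 1.00 TPM in EpiLCs and 0.166 TPM in ESCs.

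The cytoplasmic partners of JAM proteins, mostly PDZ scaffolds, polarity proteins and Rap GTPases, were mostly higher in EpiLCs. The gene lists here and below were chosen with earlier results of these data known, so their counts and medians are descriptions. Of 22 tested genes in a list of 23, 13 rose and 6 fell, against the background of 36.1% higher and 30.9% lower, and the median log2 fold change was 0.31, against 0.04 over all tested genes. The multi-PDZ scaffold genes Mpdz and Patj had the largest increases, Mpdz at 9.38 ± 1.10 TPM in EpiLCs and 2.34 ± 0.332 TPM in ESCs (a log2 fold change of 1.64, limma adjusted p = 1.5e-05) and Patj at 25.6 ± 1.82 TPM in EpiLCs and 7.93 ± 0.0516 TPM in ESCs (log2 fold change 1.58, limma adjusted p = 2.1e-06). Tjp1, which encodes the tight junction scaffold ZO-1 that binds both JAM tails and Cx43, rose to 86.6 ± 3.51 TPM in EpiLCs, against 42.0 ± 3.02 TPM in ESCs (log2 fold change 1.03, limma adjusted p = 7.2e-06). The polarity adaptor gene Pard6a rose by 0.96 (limma adjusted p = 1.0e-04). Prkcz, which encodes an atypical protein kinase C of the same polarity complex, fell by 0.94 (limma adjusted p = 2.8e-05), and the GTPase gene Rap1a was at 72.0 ± 2.31 TPM in EpiLCs and 67.8 ± 3.42 TPM in ESCs without passing the test (limma adjusted p = 0.22). All of these n are 3 per group, and the scaffold genes and Prkcz had no overlap between groups.

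Surface proteins known to bind or accompany JAM proteins moved both ways. Of 6 tested genes in a list of 10, 2 rose and 4 fell, against the same background, with a median log2 fold change of -0.82, against 0.04 over all tested genes. Cd9, a tetraspanin known to associate with JAM-A, fell by 2.71, at 75.9 ± 7.14 TPM in EpiLCs and 502 ± 14.2 TPM in ESCs (SD, n = 3 each, limma adjusted p = 1.8e-07), and the related Cd81 fell by 1.11 (limma adjusted p = 3.0e-06). Itgal, an integrin subunit of the leukocyte receptor for JAM-A, was low and fell, at 0.963 ± 0.0938 TPM in EpiLCs and 3.75 ± 0.130 TPM in ESCs (limma adjusted p = 3.1e-05). The laminin receptor subunit gene Itga6 rose by 0.55 (limma adjusted p = 2.3e-04).

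Of the other JAM-related immunoglobulin adhesion genes, 4 of 10 were tested, with 1 higher and 1 lower against that background, and a median log2 fold change of 0.02, against 0.04 over all tested genes. Gpa33, the gene of an intestinal cell surface antigen, fell to 22.5 ± 10.1 TPM in EpiLCs, against 57.0 ± 5.93 TPM in ESCs (SD, n = 3 each, a log2 fold change of -1.40 with SE 0.30, limma adjusted p = 0.0038), with EpiLC replicate 2 the lowest. Clmp, a relative found at epithelial contacts, rose to 2.69 ± 0.487 TPM in EpiLCs, against 0.933 ± 0.0288 TPM in ESCs (SD, n = 3 each, limma adjusted p = 5.5e-04). Cxadr, the coxsackievirus and adenovirus receptor of tight junctions, was at 10.1 ± 2.01 TPM in EpiLCs and 9.69 ± 0.674 TPM in ESCs and did not pass the test (limma adjusted p = 0.78).

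Genes for the trafficking, scaffolding and phosphorylation of connexins, known mainly from work on Cx43, were also higher more often than lower. Of 17 tested genes in a list of 20, 10 rose and 3 fell, against the background of 36.1% higher and 30.9% lower, and the median log2 fold change was 0.31, against 0.04 over all tested genes. Dbn1, which encodes the actin-binding protein drebrin that holds Cx43 at the membrane, rose to 21.0 ± 2.08 TPM in EpiLCs, against 3.29 ± 0.180 TPM in ESCs (SD, n = 3 each, a log2 fold change of 2.35, limma adjusted p = 9.6e-07). The ubiquitin ligase gene Smurf2 rose by 0.67 (limma adjusted p = 6.6e-05) and the cadherin gene Cdh2 by 0.86 (limma adjusted p = 0.0043). The casein kinase gene Csnk1e fell by 1.23, at 46.7 ± 4.48 TPM in EpiLCs and 111 ± 7.68 TPM in ESCs (limma adjusted p = 9.2e-06). Cdh1, which encodes E-cadherin, did not pass (log2 fold change 0.15, limma adjusted p = 0.21), but did without ESC replicate 2 (log2 fold change 0.26, limma adjusted p = 0.016, range over alternatives 0.016 to 0.54).

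Large-pore channels of other families did not move one way. Of 5 tested pannexin and LRRC8 genes in a list of 8, 2 rose and 2 fell, against 36.1% higher and 30.9% lower over all tested genes, with a median log2 fold change of 0.01, against 0.04. The volume-regulated channel subunit gene Lrrc8c rose to 4.05 ± 1.02 TPM in EpiLCs, against 1.27 ± 0.255 TPM in ESCs (SD, n = 3 each, limma adjusted p = 7.4e-04), and Panx1, a plasma membrane channel gene for ATP release, rose by 0.72 (limma adjusted p = 0.0039). The essential subunit gene Lrrc8a fell by 0.43 (limma adjusted p = 0.0032). Lrrc8d fell by 0.33 (limma adjusted p = 0.019), a call lost with no TPM filter (limma adjusted p = 0.055), without EpiLC replicate 2 (limma adjusted p = 0.054) or ESC replicate 2 (limma adjusted p = 0.059, range over alternatives 0.014 to 0.059), each of which left 1 lower gene in the list. Lrrc8b was at 3.59 ± 0.384 TPM in EpiLCs and 3.58 ± 0.556 TPM in ESCs and did not pass (limma adjusted p = 0.97).

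**Figure D4:**
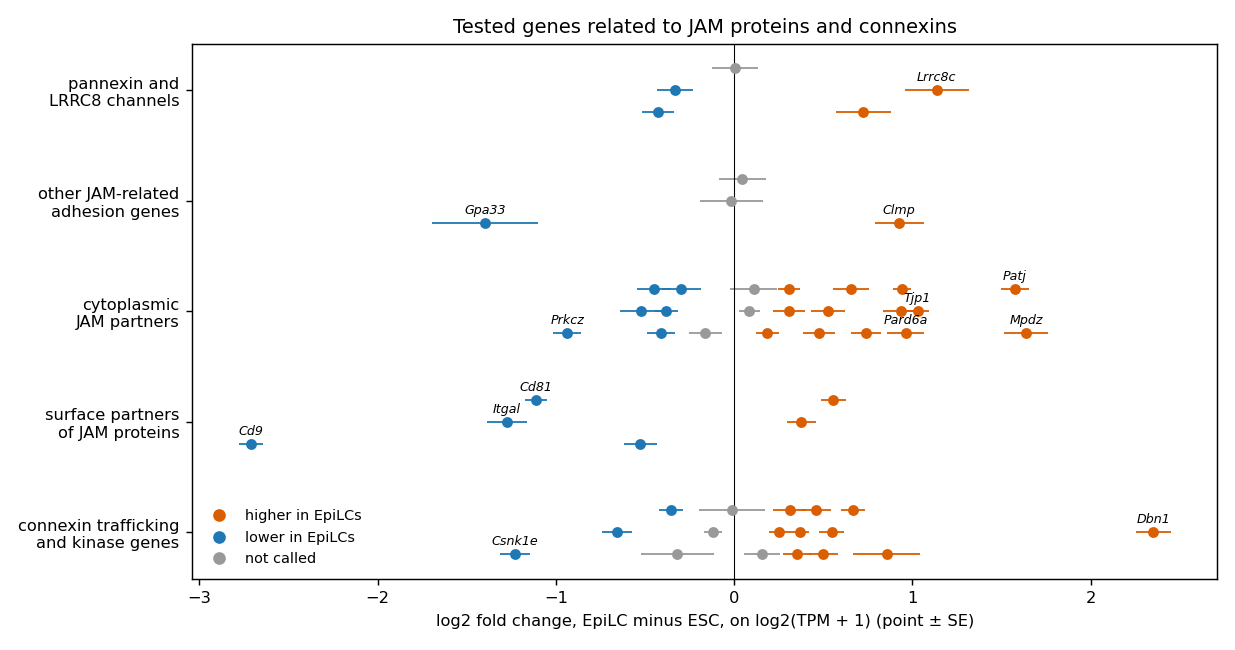
Log2 fold change, EpiLC minus ESC on log2(TPM + 1), of each tested gene in 5 lists of related genes, with its SE, in orange where higher in EpiLCs, blue where lower and grey where not called. The cytoplasmic JAM partners and the connexin trafficking genes lie mostly to the right of 0, and Cd9 lies farthest to the left.

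The nearest 2 protein-coding genes on each side of each member, in the order of an annotation of the older GRCm38 build, were compared next. Of 28 neighbours, 18 were tested, and 9 rose and 7 fell, against the background of 36.1% and 30.9%, with a median log2 fold change of 0.16. The neighbours of Jam2 differed little beside a Jam2 difference of -7.37. Mrpl39, a mitochondrial ribosomal protein gene, fell by 0.39 (limma adjusted p = 2.5e-04), and Gabpa, an ETS factor gene, by 0.36 (limma adjusted p = 0.0023). Atp5pf, an ATP synthase subunit gene, fell by 0.15 (limma adjusted p = 0.031), a call lost with no TPM filter (limma adjusted p = 0.071), without EpiLC replicate 1 or 3 (limma adjusted p = 0.067 and 0.096) or ESC replicate 1 or 3 (limma adjusted p = 0.069 and 0.10, range over alternatives 0.0055 to 0.10).

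Beside Gja1, the gene next to it on one side, Msl3l2, rose to 4.39 ± 0.511 TPM in EpiLCs, against 0.931 ± 0.118 TPM in ESCs (SD, n = 3 each, a log2 fold change of 1.48, limma adjusted p = 2.6e-05). On the other side, the heat shock factor gene Hsf2 rose by 0.50 (limma adjusted p = 1.4e-04) and Serinc1 by 0.43 (limma adjusted p = 2.1e-04). Tbc1d32, a gene of cilium formation and the farther neighbour beyond Msl3l2, was at 3.49 ± 0.314 TPM in EpiLCs and 3.53 ± 0.248 TPM in ESCs and did not pass (limma adjusted p = 0.92). Among the other members, Tstd1 beside F11r passed a 2-fold change and rose to 6.05 ± 2.11 TPM in EpiLCs, against 1.93 ± 0.370 TPM in ESCs (limma adjusted p = 0.0018).

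**Figure D5:**
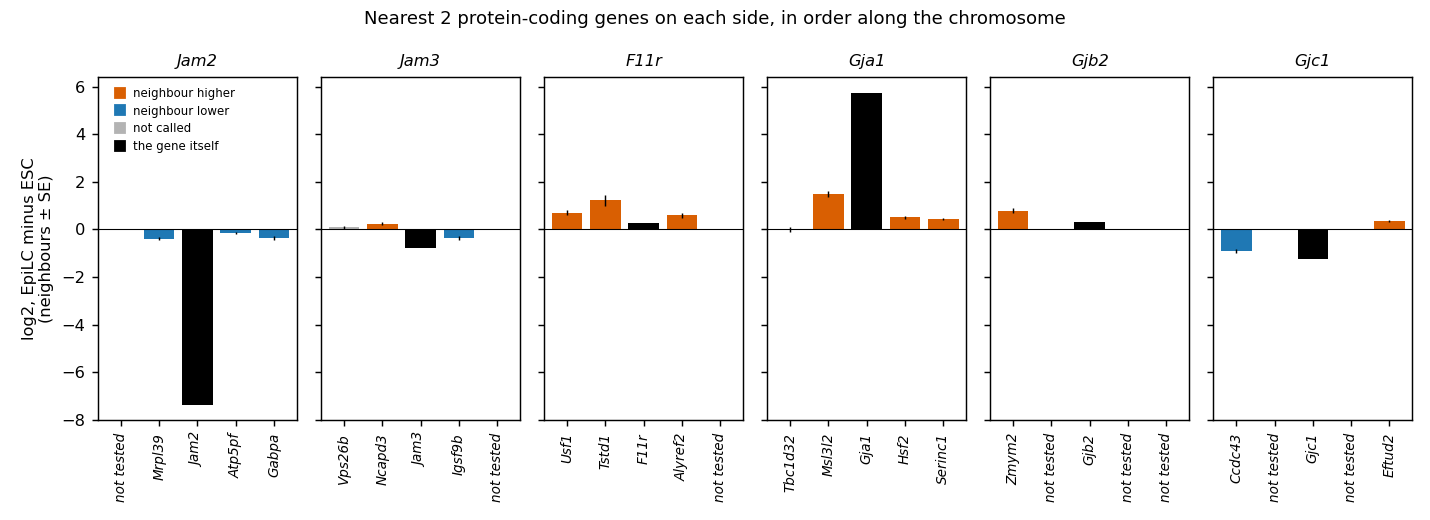
Log2 difference, EpiLC minus ESC, of 6 of the 7 genes (black, no test; Gjb5 is not drawn) and of its tested neighbours along the chromosome (orange higher, blue lower, grey not called, with SE). The neighbours of Jam2 stay within 0.39 of 0, and Msl3l2 beside Gja1 is at 1.48.

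The tested genes most like each member were found by the smallest root mean square difference of log2(TPM + 1) over the 6 libraries, a measure of level and difference together. Nearest to Jam2 were the water and glycerol channel gene Aqp3 (0.74), the naive pluripotency factor gene Klf4 (1.02) and S100a13 (1.05). Even Aqp3 was not as low in EpiLCs as Jam2, at 2.21 ± 0.346 TPM in EpiLCs and 229 ± 14.5 TPM in ESCs (SD, n = 3 each). Nearest to Gja1 were the Nodal antagonist gene Lefty1 (0.27), the imprinted gene Peg10 (0.41) and the DNA methyltransferase cofactor gene Dnmt3l (0.72). Lefty1 had almost the same means as Gja1, at 198 ± 52.0 TPM in EpiLCs and 2.81 ± 0.797 TPM in ESCs.

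Gjb5 was most like the folate enzyme gene Aldh1l1 (0.30), the nuclear receptor gene Nr5a2 (0.32) and Lrrc34 (0.33), with Nr5a2 at 2.74 ± 0.566 TPM in EpiLCs and 56.1 ± 4.70 TPM in ESCs (SD, n = 3 each). Gjc1 was most like Cryz, Dmtn and Zfp346 (0.12 to 0.13), Jam3 most like Galm, Rnf185 and Cry2 (0.06 to 0.08), and F11r most like U2af1l4, Socs2 and Rsf1 (0.07 to 0.09). Gjb2 was most like Stk36, ENSMUSG00000131825 and Rasgef1b (0.07 to 0.11).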

How the data were processed

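The authors deposited 1 table of TPM values, with 1 column per library and 78298 genes. Per the submitters' processing notes, the tools were STAR, Salmon, Trim Galore and FastQC, named without versions, with mm39/GRCm39 as the build. The annotation and the summing of transcripts to genes are not given in the sources used here. Per the labels' protocols, the poly(A) libraries kept strand; whether quantification used it is not given. Column names carry an unexplained 0uM tag. All 6 columns matched 1 sample each. At most 0.00378% of nonzero values were identical within a pair of replicates.

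Values were taken as log2(TPM + 1), and the 14036 genes with a mean of at least 1 TPM were compared with limma 3.58.1 in R 4.3.3 (moderated by eBayes along a mean-variance trend). Tests were two-sided, p was adjusted by Benjamini-Hochberg across these genes, and calls were made at 0.05. TPM keeps no depth, so no count model or counting interval was used, and the log2(TPM + 1) scale understates changes of low genes. Since the separation of cultures is not stated, a p-value here reflects library-to-library spread, which may be technical. The code was tested on simulated data. Python 3.11.15 (pandas 2.3.3, matplotlib 3.10.9) was used for tables and plots.

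The members and gene lists were chosen with earlier results of these data known. Besides the 7 members, the text names other connexins with a group mean of at least 1 TPM, and of each list up to 4 called genes with the largest change, the strongest call in the less frequent direction and the most abundant uncalled gene. It also names all tested neighbours of Jam2 and Gja1, other called neighbours past 2-fold, and the 3 most alike genes of each member, leaving out names starting Gm or ending Rik. Some genes that this rule names are not reported here. Single markers were chosen for naming after their values were seen. Neighbour order came from GENCODE M21 (GRCm38) by gene identifier. As alternatives, the scaling was changed (quantile normalization or median-of-ratios), the filter was dropped or raised to 5 TPM, the pseudocount was lowered to 0.5 or 0.1, a replicate block was added, and each library was left out.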

Additional observations from a re-analysis of the deposited data

How the results depend on the processing

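Over 13 alternative settings, 851 of 889 recomputed values were labelled as kept, and the 7 members kept their direction in all settings run. Because the member groups did not overlap, a changed pseudocount or 1 library left out could not turn a direction. A replicate block left the member differences unchanged by construction. Only the changes of scaling could have turned a member, and the 851 include such fixed outcomes. Kept meant the same direction and side of the threshold, or a move of less than the spread. For counts it meant staying within a fixed ratio of the main count, so 7100 to 11031 genes called, against 9397, were all kept. The size of the member differences depended on the pseudocount. With 0.1 the log2 difference was -8.59 for Jam2, 6.14 for Gja1, -4.22 for Gjb5 and 0.46 for Gjb2, and with 0.5 it was -7.92 for Jam2 and -4.02 for Gjb5. With no TPM filter, the calls were 5 for other connexins (4 lower and 1 higher), 1 lower for pannexin and LRRC8 channels, 2 higher for other JAM-related adhesion genes and 4 higher for surface partners of JAM proteins. With a filter at 5 TPM, which tests fewer genes, they were 1 for other connexins (1 lower), 1 higher for pannexin and LRRC8 channels, and 1 for other JAM-related adhesion genes (0 higher). Leaving out 1 library gave 1 to 2 lower pannexin and LRRC8 genes and 8568 to 8965 genes called over the table. Signs of uncalled genes turned for Lrrc8b (-0.032 with median-of-ratios scaling, -0.030 with quantile normalization, and -0.067 to 0.10 with 1 library left out), for Cxadr (-0.097 to 0.13 with 1 library left out) and for Tbc1d32 (-0.063 to 0.039 with 1 library left out). Where no construction of the setting shows it, the cause was not tested.

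Same-numbered libraries of the groups correlated weakly in their deviations from the group means (r = 0.065 to 0.14 across genes), with 2 of 3 pairs over 0.1, so the numbers were not taken as pairs. Every EpiLC library correlated best with the ESC library of its own number, a hint from the data only. With a replicate block 9612 genes were called, against 9397 without, and among named genes Cdh1 passed (limma adjusted p = 0.025). TPM keeps no depth, so the precision of low values such as Jam2 in EpiLCs could not be given.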
